A study of Mus musculus with 12 samples.

Results

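The p53 circuit was followed here as 10 genes among the 56980 gene IDs of the table: the tumour suppressor gene Trp53, its regulators Mdm2, Mdm4, Ppm1d and Ccng1, and the growth-arrest targets Cdkn1a, Btg2, Plk2, Sesn1 and Zmat3. They were listed by name, with earlier results of these data known, and all 10 passed the filter on low counts. Counts among them are set beside the share of all genes as a description only. The cells were NIH/3T3, an immortalised line of mouse embryo fibroblasts labelled as wild type (WT), grown in DMEM with serum. Polyadenylated RNA was sequenced after 8 h under 4 treatments, in 3 libraries each: carfilzomib at 200 nM together with doxorubicin at 5 µM (CFZ-DOX), either drug alone at the same dose (CFZ, DOX), and the vehicle DMSO. Carfilzomib is an irreversible proteasome inhibitor, and doxorubicin is an intercalating anthracycline that traps topoisomerase II on DNA.

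The p53 protein is a transcription factor that is made continuously and degraded by the proteasome after Mdm2 attaches ubiquitin to it, so its activity is set largely at the level of the protein. After DNA damage, kinases modify p53 and its partners, p53 accumulates and it binds target genes such as Cdkn1a. Several of those targets, Mdm2, Ppm1d and Ccng1 among them, encode proteins that turn p53 down again. RNA counts measure the transcripts of these genes and not the p53 protein.

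The libraries held 28278879 to 42033993 counts, and the fewest counts behind any of the 10 genes in a library were 214, for Sesn1. Of 10 fibroblast markers, 9 had 11.4 CPM or more in every library and Lum was near 0, with summed levels of 43700 to 75200 CPM (counts per 1000000 of the library total) in CFZ-DOX, 18700 to 28500 in CFZ, 33400 to 57600 in DOX and 26700 to 35000 in DMSO cells. Within the fibroblast list, collagens, Fn1 and Vim made up most of the sums, while the receptor genes Pdgfra (22.9, 143, 35.4 and 178 CPM) and Pdgfrb (43.6, 46.7, 73.8 and 206 CPM; means in CFZ-DOX, CFZ, DOX and DMSO cells) were lowest with both drugs. Cdkn2a, which encodes the Mdm2 antagonist ARF and is deleted in this line, had 0 counts in all 12 libraries. Summed markers of epithelial, endothelial and muscle cells stayed at or below 4.03 CPM, and 3 neural markers summed to 16.3 to 28.6 CPM, mostly Tubb3. The 3 immune markers summed to 7.98 to 13.9 CPM in CFZ-DOX, 1.31 to 1.64 in CFZ, 2.24 to 4.82 in DOX and 0.987 to 1.47 in DMSO cells, nearly all of it Cd68, with Ptprc and Adgre1 at no more than 0.247 CPM in any library. The 81 ribosomal protein genes took 9.76 to 10.4% of the counts in CFZ-DOX, 3.81 to 4.29% in CFZ, 6.54 to 7.09% in DOX and 3.87 to 4.21% in DMSO libraries. In the TMM-scaled levels used further below, replicate 3 was the highest of its group for 9 of the 10 genes in CFZ-DOX cells. It was the highest for 7 of the 10 in both CFZ and DOX cells. The part of these shifts in the results was not tested.

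From here on levels are CPM scaled by TMM factors, and log2 fold changes, standard errors (SE) and adjusted p-values come from edgeR's quasi-likelihood test of all 16648 genes that passed the filter, with Benjamini-Hochberg adjustment. Genes with an adjusted p under 0.05 are described as called. Nothing in the labels ties replicates to independent cultures, so the spread behind these p-values may be technical. In bulk RNA a lower CPM is a smaller share of the counts, and fewer cells expressing a gene and less of its RNA per cell cannot be told apart. The 3 drug groups share the same DMSO libraries, so their comparisons with DMSO are not independent of each other.

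**Figure D1:**
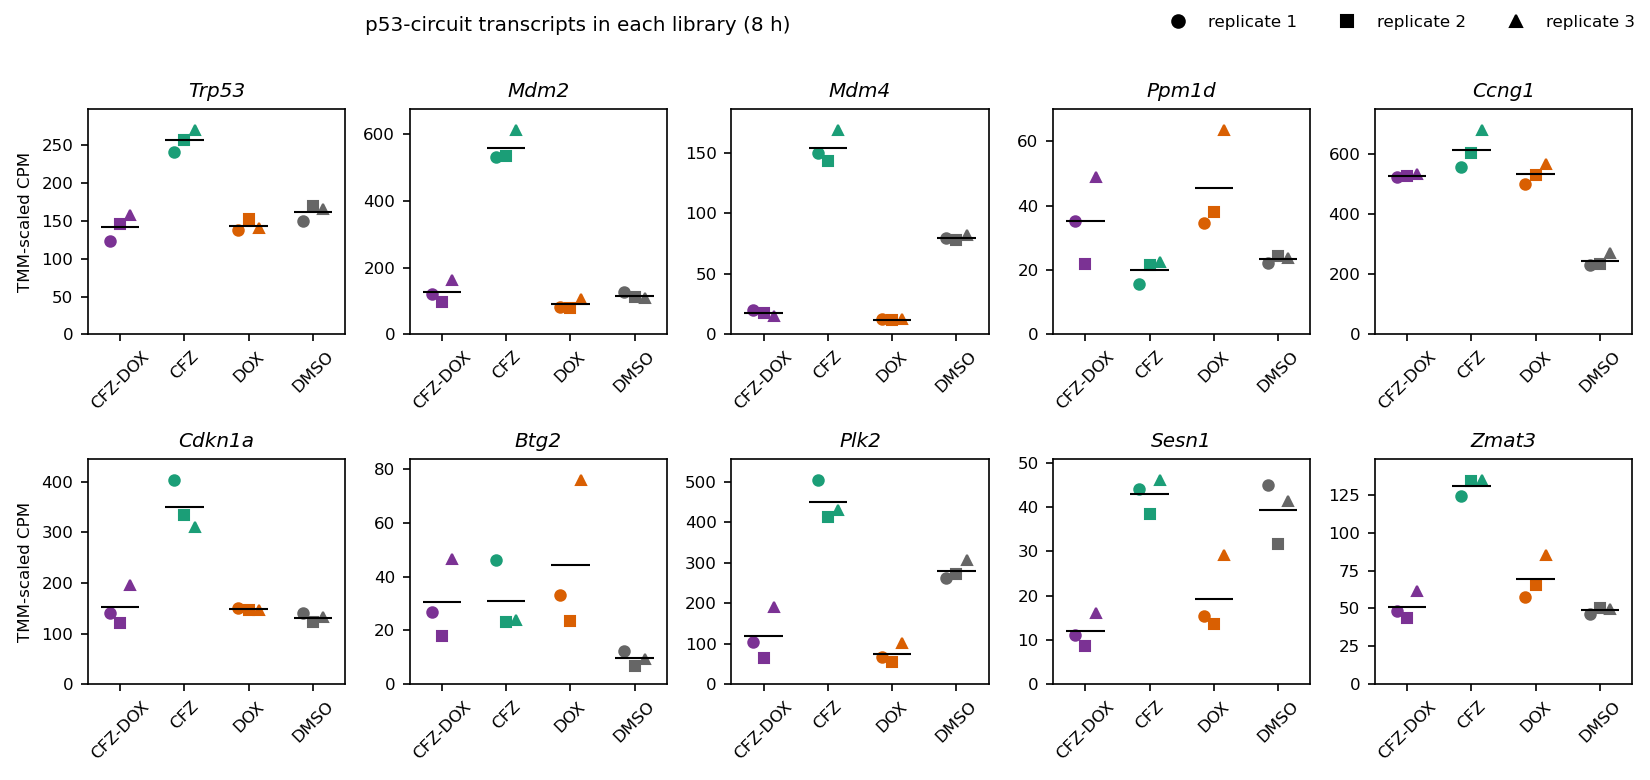
Level of each of the 10 genes in every library, as TMM-scaled CPM on a linear axis starting at 0, with CFZ-DOX, CFZ, DOX and DMSO from left to right; markers are replicates 1 to 3 and lines are group means. Trp53, Mdm2, Mdm4, Cdkn1a, Plk2 and Zmat3 stood apart in CFZ cells, though Plk2 was not called there against DMSO. Mdm4 was lowest with doxorubicin. Ccng1 was higher in all 9 drug-treated libraries than in the 3 DMSO libraries, an order that ribosomal protein scaling turned for CFZ-DOX.

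Carfilzomib alone moved most of the circuit upward. Of the 10 genes, 7 were called higher in CFZ than in DMSO cells and 0 lower, beside 28.8% of all genes tested that were called and 14.4% that were called higher. The median log2 fold change was 1.14 over the 10 genes and −0.01 over all genes. Those 7 were Trp53, Mdm2, Mdm4, Ccng1, Cdkn1a, Btg2 and Zmat3, and 6 of them, all but Btg2, were called higher under each of 5 scalings of the libraries, as were 7.92% of all genes. Doxorubicin alone gave a split picture: 4 of the 10 were higher and 3 lower in DOX than in DMSO cells, where 67.4% of all genes were called, 36.1% higher and 31.3% lower. With both drugs, 2 were higher and 3 lower than in DMSO cells, against 75.0% of all genes called, 39.3% higher and 35.7% lower. The counts with doxorubicin therefore lay at about the share of all genes or below it. Scaled on ribosomal protein genes, the split became 1 higher and 6 lower in DOX cells and 0 higher and 9 lower in CFZ-DOX cells, beside 13.4% higher and 54.5% lower of all genes in DOX and 11.1% and 68.6% in CFZ-DOX cells, while that scaling moved the median of all genes by −0.87 and −1.65 and, in CFZ cells, by −0.09.

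Trp53 itself, on chromosome 11 (69471185 to 69482699, plus strand; GRCm39 for all gene positions of the deposited table), stood at 123, 146 and 158 CPM in CFZ-DOX, 241, 257 and 270 CPM in CFZ, 138, 152 and 140 CPM in DOX, and 150, 170 and 166 CPM in DMSO cells. All 3 CFZ libraries lay above the other 9. Its mean was 256 ± 14.7 CPM in CFZ cells and 162 ± 10.7 CPM in DMSO cells (SD, n = 3 each), a 1.58-fold rise. The transcript was not called different from DMSO in DOX cells (log2 fold change −0.18, SE 0.13, adjusted p = 0.239) or CFZ-DOX cells (−0.19, SE 0.13, adjusted p = 0.203). Both values turned positive under upper-quartile scaling. Trp53 was called lower under ribosomal protein scaling in DOX (−1.04) and CFZ-DOX cells (−1.81), and in CFZ-DOX cells under library size scaling too (−0.50, adjusted p = 0.0260). In CFZ-DOX cells it was lower than in CFZ cells (log2 fold change −0.85, SE 0.13, adjusted p = 3.36e-05), with no overlap of the libraries, but under upper-quartile scaling that difference was −0.30 and not called.

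Mdm2, the ubiquitin ligase gene on chromosome 10 (117524780 to 117546663, minus strand), had the largest rise of the 10 genes in CFZ cells. It reached 531, 534 and 613 CPM there, against 128, 113 and 108 CPM in DMSO cells, a 4.81-fold difference. In the groups with doxorubicin it had 122, 97.5 and 163 CPM in CFZ-DOX and 81.8, 80.0 and 107 CPM in DOX cells. The DOX libraries all lay below the DMSO libraries, but the difference was not called (log2 fold change −0.38, SE 0.18, adjusted p = 0.0775); it was called with the replicate number as a block (adjusted p = 0.0226) and in the fit without CFZ-DOX 2 (adjusted p = 0.0470) or CFZ-DOX 3 (adjusted p = 0.0249). Under ribosomal protein scaling it was −1.22 and called lower (adjusted p = 0.00121). In CFZ-DOX against DMSO cells the log2 fold change was 0.13 (SE 0.18, adjusted p = 0.522), and it was 0.62 and called higher under upper-quartile scaling but −1.49 and called lower under ribosomal protein scaling. Against CFZ cells, CFZ-DOX cells had 4.39-fold less Mdm2 (log2 fold change −2.13, SE 0.19, adjusted p = 1.71e-07), a call that held in every setting tried.

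The promoter windows of RefSeq, on the older build GRCm38.p6, show where a p53 motif lies next to some of these genes. They are given for Mdm2 and Ccng1, the regulators with the largest rises in CFZ cells, and for Cdkn1a, the arrest target with the fullest match, with matches to the 10-base p53 consensus half-site in capitals and the last base just before the annotated start. A match to the half-site, on either strand since the motif is palindromic, was found in 6 of 12 windows (250 bases before a start to 50 after it) of 9 of the 10 genes and in 8.36% of all 32851 windows. Besides the 3 genes shown, Trp53, Ppm1d and Sesn1 had a match, while Mdm4, Btg2 and Plk2 had none. Of these, Trp53, Mdm4 and Btg2 were called higher in CFZ than in DMSO cells, and Ppm1d, Sesn1 and Plk2 were not called. Zmat3 had no window. The upstream 250 bases of Mdm2 (chr10:117710759-117711008, minus strand) and Ccng1 (chr11:40755287-40755536, minus strand) hold 1 match each, GAACTTGCCT from position −186 and GGGCAAGCCT from position −185, where −1 is the base before the start.
Mdm2: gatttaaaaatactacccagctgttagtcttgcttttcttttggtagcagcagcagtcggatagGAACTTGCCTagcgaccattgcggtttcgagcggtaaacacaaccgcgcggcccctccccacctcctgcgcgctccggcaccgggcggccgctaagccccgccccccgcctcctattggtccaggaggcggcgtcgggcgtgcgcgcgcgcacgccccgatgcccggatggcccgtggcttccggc
Ccng1: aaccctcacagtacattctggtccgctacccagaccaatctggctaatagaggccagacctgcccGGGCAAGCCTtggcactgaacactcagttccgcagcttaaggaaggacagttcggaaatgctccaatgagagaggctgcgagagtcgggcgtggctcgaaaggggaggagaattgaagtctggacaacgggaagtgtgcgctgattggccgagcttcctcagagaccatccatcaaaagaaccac
The upstream start of Cdkn1a (chr17:29090729-29090978, plus strand) holds 2 half-site matches, and the second is part of a 20-base pair of adjoining half-sites with 1 mismatch, from position −51. The window of the other annotated Cdkn1a start, further downstream (chr17:29093519-29093768, plus strand), holds no half-site match. Such a pair, at up to 1 mismatch, occurred in 18 of the 32851 windows (0.0548%) and in no other window of the 10 genes.
Cdkn1a: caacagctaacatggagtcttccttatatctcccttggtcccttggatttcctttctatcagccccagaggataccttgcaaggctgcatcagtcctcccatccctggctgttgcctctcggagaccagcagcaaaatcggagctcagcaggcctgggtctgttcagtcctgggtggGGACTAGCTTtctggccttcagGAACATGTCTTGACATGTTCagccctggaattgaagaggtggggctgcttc
A match is a run of letters and not a measured binding site. Sequence outside these windows was not searched, so sites elsewhere in or near the genes would be missed.

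Mdm4 responded to the drugs in opposite directions. Its protein resembles Mdm2 and binds the p53 activation domain, but has little ligase activity of its own. The gene spans 71.1 kb of chromosome 1 (132887222 to 132958299, minus strand), and its reads stood at 20.3, 17.4 and 15 CPM in CFZ-DOX, 150, 143 and 169 CPM in CFZ, 12.3, 11.6 and 12.3 CPM in DOX, and 79.5, 77.6 and 82.3 CPM in DMSO cells. Each group lay clear of the 3 others. The level was 1.93-fold higher in CFZ than in DMSO cells (log2 fold change 0.95, SE 0.13, adjusted p = 8e-05), 6.61-fold lower in DOX cells (−2.72, SE 0.14, adjusted p = 6.92e-09) and 4.55-fold lower in CFZ-DOX cells (−2.18, SE 0.13, adjusted p = 9.22e-09). All 3 of these calls held in every setting tried. Mdm4 was also the only gene of the 10 called between CFZ-DOX and DOX cells (log2 fold change 0.54, SE 0.13, adjusted p = 0.00991), where 22.4% of all genes were called, but the call was lost under library size scaling (0.30), without a filter (0.48, adjusted p = 0.0720) and with those 6 libraries alone (0.52, adjusted p = 0.129), and the sign turned under ribosomal protein scaling (−0.26).

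Ppm1d encodes the phosphatase Wip1, which removes phosphate groups from p53 and from kinases of the damage response. It lies on chromosome 11 (85202070 to 85237892, plus strand). Its level was 35.4, 21.9 and 48.8 CPM in CFZ-DOX, 15.6, 21.7 and 22.5 CPM in CFZ, 34.7, 38.1 and 63.6 CPM in DOX, and 22.2, 24.3 and 23.9 CPM in DMSO cells. The DOX libraries all lay above the DMSO libraries, the CFZ libraries overlapped them, and the CFZ-DOX libraries spread over a 2.23-fold range. It was called 1.94-fold higher in DOX than in DMSO cells (log2 fold change 0.95, SE 0.27, adjusted p = 0.00623), a call lost under library size scaling (adjusted p = 0.0548) and ribosomal protein scaling (log2 fold change 0.15). In CFZ-DOX against DMSO cells the adjusted p was 0.0589 (log2 fold change 0.59, SE 0.27), and the value was 0.83 (adjusted p = 0.00714) without CFZ-DOX 2, 0.29 and not called without CFZ-DOX 3, and 0.64 (adjusted p = 0.0171) without DOX 3. It was called higher at 1.08 under upper-quartile scaling (adjusted p = 0.00120), at 0.70 with RLE factors, DESeq2 or those 6 libraries alone, at 0.56 with no filter, at 0.74 with the 1 CPM filter and at 0.54 with the replicate block, and called lower at −1.02 under ribosomal protein scaling. Against CFZ cells, CFZ-DOX cells were called higher (log2 fold change 0.83, SE 0.27, adjusted p = 0.0121) though the groups overlapped; without CFZ-DOX 3 the value was 0.52 (adjusted p = 0.0725), without CFZ 1 it was 0.65 (adjusted p = 0.0655), and under library size scaling it was 0.62 (adjusted p = 0.148). Ribosomal protein scaling turned it to −0.69, not called.

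Ccng1, the gene of cyclin G1, a p53 target that brings the phosphatase PP2A to Mdm2, was the most evenly raised of the regulators. On chromosome 11 (40639379 to 40646138, minus strand) it gave 523, 526 and 534 CPM in CFZ-DOX, 555, 602 and 680 CPM in CFZ, 501, 529 and 567 CPM in DOX, and 230, 235 and 269 CPM in DMSO cells. Every drug-treated library lay above every DMSO library. The rises were 2.16-fold in CFZ-DOX, 2.50-fold in CFZ and 2.18-fold in DOX cells (log2 fold changes 1.11, 1.32 and 1.12, SE 0.14 each; adjusted p = 4.67e-06, 1.06e-05 and 6.89e-06). Only the rise in CFZ cells held under every scaling: under ribosomal protein scaling Ccng1 stood at 0.27 in DOX cells, not called, and at −0.53, called lower, in CFZ-DOX cells.

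**Figure D2:**
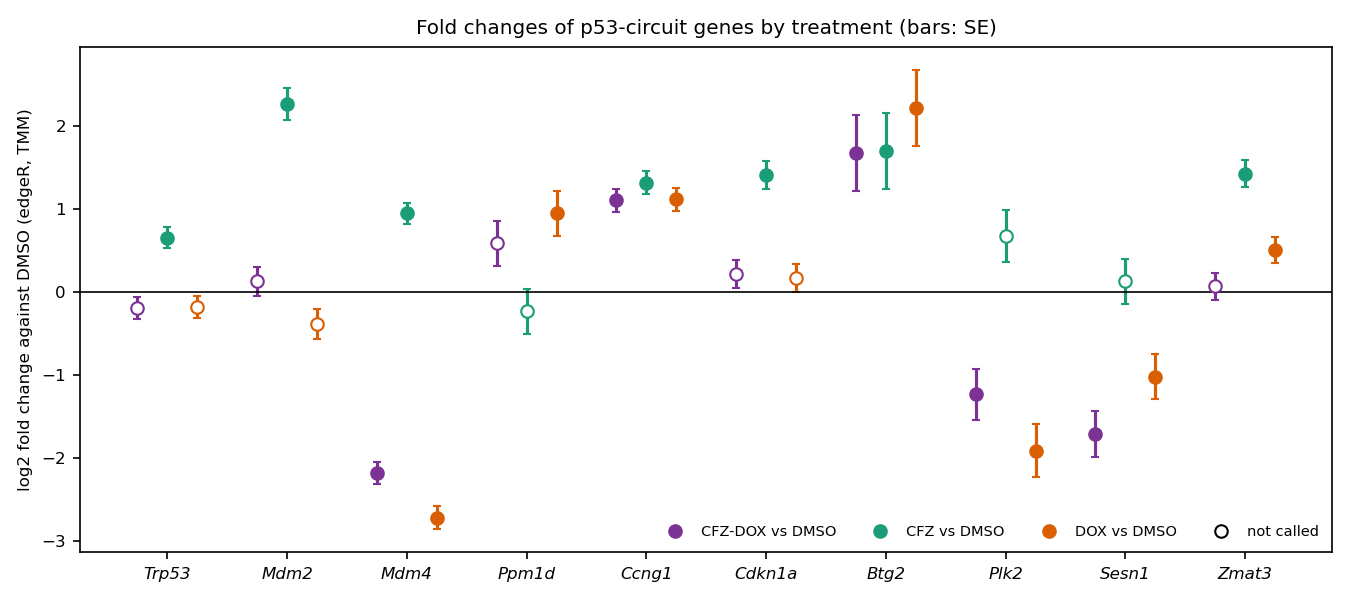
Log2 fold change of each gene against DMSO for CFZ-DOX, CFZ and DOX cells, with SE bars; filled markers were called at an adjusted p under 0.05 and open markers were not. Mdm2 stands at 2.27 with CFZ but at −0.38 with DOX and 0.13 with CFZ-DOX, and Mdm4 stands at 0.95 with CFZ but at −2.72 with DOX.

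Among the arrest targets, Cdkn1a, which encodes the cyclin-dependent kinase inhibitor p21, separated CFZ cells from all others. Its gene on chromosome 17 (29309950 to 29319701, plus strand) had 141, 121 and 196 CPM in CFZ-DOX, 404, 334 and 311 CPM in CFZ, 151, 146 and 147 CPM in DOX, and 140, 122 and 132 CPM in DMSO cells. The lowest CFZ library stood above the highest of the 9 others. The mean of 148 ± 2.49 CPM in DOX cells and 131 ± 8.90 CPM in DMSO cells (SD, n = 3 each) did not overlap library by library, yet the difference was not called (log2 fold change 0.17, SE 0.17, adjusted p = 0.388), was called higher under upper-quartile scaling (0.54) and was called lower under ribosomal protein scaling (−0.70). In CFZ-DOX against DMSO cells the log2 fold change was 0.22 (SE 0.17, adjusted p = 0.256), with 0.70 and −1.40 under the same 2 scalings, both called. CFZ-DOX cells had 2.29-fold less Cdkn1a than CFZ cells (log2 fold change −1.20, SE 0.17, adjusted p = 1.69e-05), a call that held in every setting. An annotated gene on the opposite strand, AC167363.2, shares 273 exon bases with Cdkn1a; it had 42 to 191 counts per library where Cdkn1a had 2984 to 13704.

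Btg2, an antiproliferative factor that works with the CCR4-NOT deadenylase, was higher with every treatment but varied widely between replicates. The levels on chromosome 1 (134002908 to 134006858, minus strand) were 27.0, 18.1 and 46.7 CPM in CFZ-DOX, 46.4, 23.1 and 23.9 CPM in CFZ, 33.2, 23.7 and 76.2 CPM in DOX, and 12.5, 6.75 and 9.45 CPM in DMSO cells. No treated library fell into the DMSO range, although DOX libraries spanned 3.22-fold. The rise in DOX cells was 4.65-fold (log2 fold change 2.22, SE 0.46, adjusted p = 0.000917) and held in every setting. In CFZ-DOX cells it was 3.21-fold (log2 fold change 1.68, SE 0.46, adjusted p = 0.00454), with an adjusted p of 0.0546 without CFZ-DOX 3 and a value of 0.07 under ribosomal protein scaling. In CFZ cells it was 3.26-fold (log2 fold change 1.70, SE 0.46, adjusted p = 0.0134). That adjusted p became 0.0504 without CFZ 1, 0.0607 without DMSO 2, 0.0525 without DMSO 3, 0.0573 under ribosomal protein scaling and 0.0990 with no filter.

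Plk2 and Sesn1 went down with doxorubicin. Plk2, a polo-like kinase with a role in centriole duplication, stood on chromosome 13 (110531580 to 110537378, plus strand) at 104, 64.1 and 191 CPM in CFZ-DOX, 506, 413 and 430 CPM in CFZ, 66.1, 54.9 and 103 CPM in DOX, and 263, 272 and 308 CPM in DMSO cells. The ranges of CFZ-DOX and DOX libraries overlapped and both lay below DMSO, while all CFZ libraries lay above it. It was 3.77-fold lower in DOX cells (log2 fold change −1.91, SE 0.32, adjusted p = 0.000104) and 2.35-fold lower in CFZ-DOX cells (−1.23, SE 0.31, adjusted p = 0.00229), and both calls held in every setting. The 1.60-fold difference between CFZ and DMSO cells was not called (log2 fold change 0.68, SE 0.31, adjusted p = 0.114), but was with the replicate number as a block (adjusted p = 0.0215), without CFZ-DOX 2 (adjusted p = 0.0462), without CFZ-DOX 3 (adjusted p = 0.0211), with no filter (adjusted p = 0.00695) or when those 6 libraries were fitted alone (adjusted p = 0.000126).

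Sesn1 encodes a sestrin, a stress protein that restrains the growth kinase complex mTORC1. Its gene, at 98.5 kb the longest of the 10, lies on chromosome 10 (41685931 to 41784420, plus strand) and had 11.2, 8.66 and 16.1 CPM in CFZ-DOX, 44.2, 38.5 and 46.2 CPM in CFZ, 15.4, 13.5 and 29.1 CPM in DOX, and 44.9, 31.7 and 41.4 CPM in DMSO cells. CFZ and DMSO libraries overlapped (log2 fold change 0.13, SE 0.27, adjusted p = 0.773). The levels were 2.03-fold lower in DOX (log2 fold change −1.02, SE 0.27, adjusted p = 0.00416) and 3.27-fold lower in CFZ-DOX cells (−1.71, SE 0.28, adjusted p = 6.52e-05) than in DMSO cells, and both calls held in every setting. Plk2, Sesn1 and Mdm4 were thus the genes of the circuit called lower under all 5 scalings both in CFZ-DOX cells, as were 24.8% of all genes, and in DOX cells, as were 22.3%.

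Zmat3, a p53 target gene for a zinc-finger protein that binds RNA, lies on chromosome 3 (32388941 to 32420163, minus strand). Its values were 48.3, 43.8 and 61.6 CPM in CFZ-DOX, 124, 134 and 135 CPM in CFZ, 57.5, 65.3 and 85.0 CPM in DOX, and 46.2, 50.1 and 49.8 CPM in DMSO cells. The CFZ libraries lay above all others, and the DOX libraries lay above DMSO without reaching the CFZ range. The rise was 2.69-fold in CFZ cells (log2 fold change 1.43, SE 0.16, adjusted p = 1.9e-05) and held in every setting. In DOX cells it was 1.42-fold (log2 fold change 0.51, SE 0.16, adjusted p = 0.0103), not called under library size scaling (0.42) and at −0.32 under ribosomal protein scaling. CFZ-DOX cells overlapped DMSO cells (log2 fold change 0.07, SE 0.16, adjusted p = 0.685), with a call of higher under upper-quartile scaling (0.56) and lower under ribosomal protein scaling (−1.55).

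**Figure D3:**
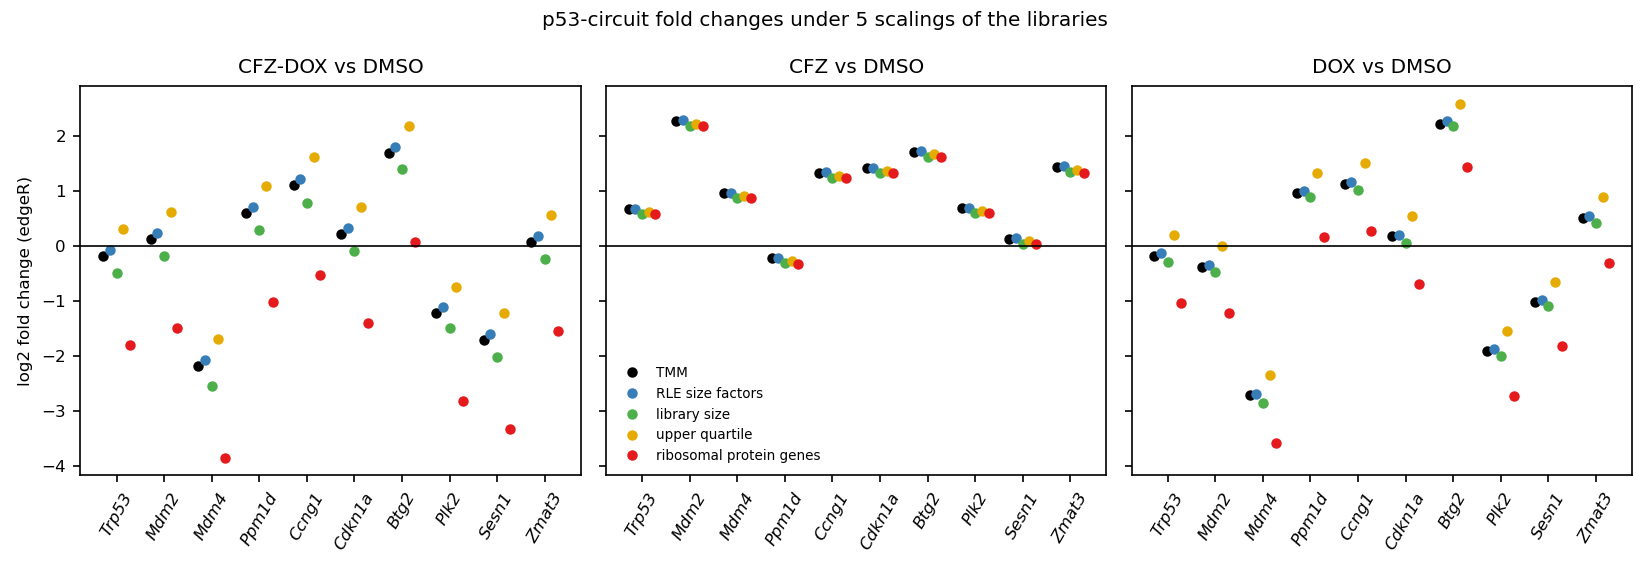
Log2 fold changes of the 10 genes against DMSO under TMM, RLE, library size, upper-quartile and ribosomal protein gene scaling, in 1 panel each for CFZ-DOX, CFZ and DOX cells. The 5 points of a gene nearly coincide in CFZ cells and spread widely with doxorubicin, where Mdm4, Plk2 and Sesn1 stay below 0 at every scaling.

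Set per kilobase of exon, the order of levels also changed. In DMSO cells Ccng1 (69.7 ± 5.99 CPM per kb) and Plk2 (62.5 ± 5.26) stood highest and did not differ beyond their SDs, followed by Trp53 (40.0 ± 2.65) and Cdkn1a (37.0 ± 2.50), which overlapped, and by Mdm2 (22.9 ± 2.10). Sesn1 (9.88 ± 1.72), Ppm1d (7.40 ± 0.345), Mdm4 (5.39 ± 0.162), Zmat3 (4.26 ± 0.191) and Btg2 (3.48 ± 1.04) stood lower, with the last pair overlapping within their SDs. In CFZ cells Mdm2 reached 110 ± 9.21 CPM per kb, close to Plk2 at 100 ± 11 and Cdkn1a at 98.4 ± 13.6, and below Ccng1 at 174 ± 18. With DOX, Mdm4 was the lowest of the 10 at 0.816 ± 0.0267 CPM per kb.

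Ratios of a pair of transcripts within a library do not depend on how libraries are scaled, so they show which changes were unequal. Counts per kb of exon were used, and each treatment was compared with DMSO by an exact two-sided permutation test on log2 ratios. With 3 libraries against 3 the smallest p possible was 0.10, and 12 tests were run. Mdm2 to Trp53 was 0.789, 0.531 and 0.820 in CFZ-DOX, 1.76, 1.66 and 1.81 in CFZ, 0.473, 0.418 and 0.605 in DOX, and 0.683, 0.528 and 0.517 in DMSO libraries. Only CFZ libraries separated from DMSO, by 1.61 on the log2 scale (exact permutation p = 0.10, adjusted 0.15). The ratio was 3.05-fold higher in CFZ cells, a separation without overlap in a design that cannot reach 0.05.

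The ratio of Mdm2 to its relative Mdm4 stood higher in every treated library. It was 17.5, 16.3 and 31.6 in CFZ-DOX, 10.3, 10.9 and 10.5 in CFZ, 19.4, 20 and 25.2 in DOX, and 4.70, 4.22 and 3.82 in DMSO libraries. All 9 treated libraries lay above the DMSO libraries, by 2.30, 1.32 and 2.34 on the log2 scale for CFZ-DOX, CFZ and DOX (exact permutation p = 0.10 and adjusted 0.15 for each). In CFZ cells Mdm4 was above its DMSO level and Mdm2 further above; in DOX cells Mdm2 lay somewhat below DMSO and Mdm4 far below. Cdkn1a to Trp53 averaged 1.57 ± 0.309 in CFZ and 1.18 ± 0.0775 in DOX cells, without overlap with the 0.930 ± 0.124 of DMSO cells, and 1.22 ± 0.247 in CFZ-DOX cells, which overlapped DMSO (SD, n = 3 each). Cdkn1a to Mdm2 was below DMSO in CFZ cells (0.903 ± 0.182 against 1.62 ± 0.110) and above it in DOX cells (2.40 ± 0.379), again with exact permutation p = 0.10 each.

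**Figure D4:**
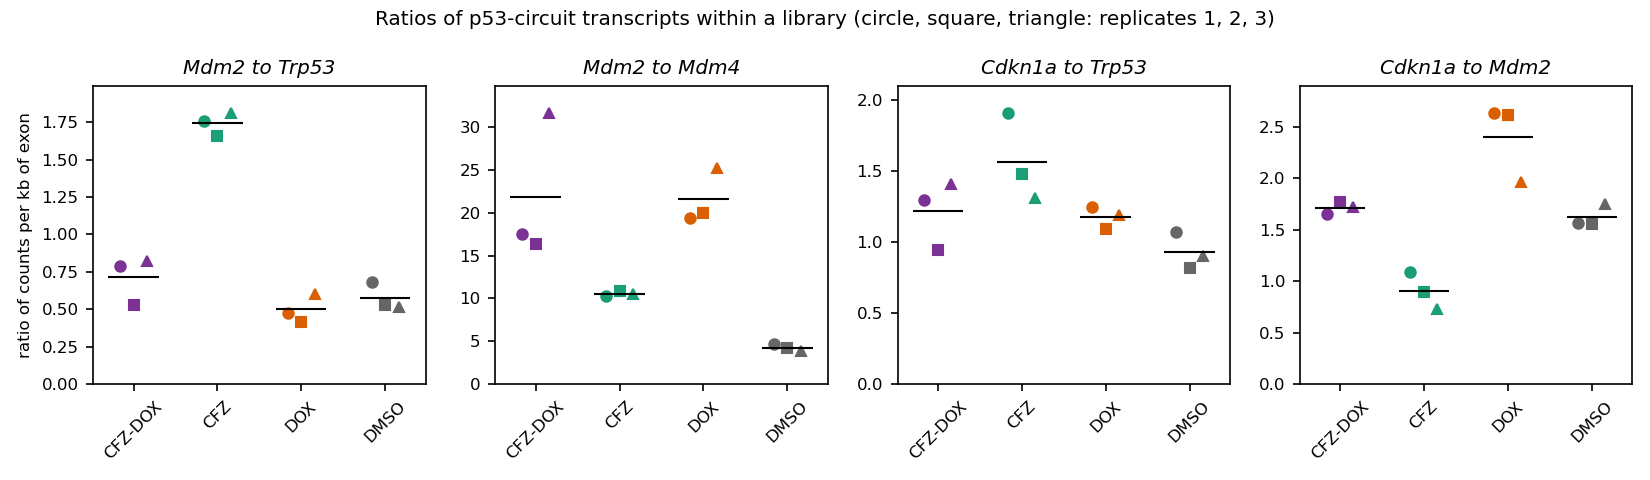
Ratio of counts per kb of exon for 4 pairs of genes in each library, on linear axes from 0, with lines at group means. CFZ libraries stand at 1.66 to 1.81 for Mdm2 to Trp53 against 0.517 to 0.683 in DMSO libraries, and all treated libraries stand above DMSO for Mdm2 to Mdm4.

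For 6 of the 10 genes the effect of carfilzomib was lower once doxorubicin was present. The question was put as the carfilzomib effect with doxorubicin (CFZ-DOX against DOX) minus the carfilzomib effect without it (CFZ against DMSO), tested as an interaction in edgeR. The 6 were called below 0 and 0 genes above it, beside 19.6% of all genes called, 11.2% below 0 and 8.46% above. For Mdm2 the carfilzomib effect was 0.51 with doxorubicin and 2.27 without (difference −1.76, SE 0.26, adjusted p = 0.000503). For Cdkn1a it was 0.05 and 1.41 (difference −1.36, SE 0.24, adjusted p = 0.00159), for Ccng1 −0.01 and 1.32 (difference −1.34, SE 0.19, adjusted p = 0.000441), and for Zmat3 −0.44 and 1.43 (difference −1.86, SE 0.22, adjusted p = 0.000134). These 4 were called under all 5 scalings, as were 6.58% of all genes, with 1.48% called above 0 under all 5. Trp53 (difference −0.67, SE 0.18, adjusted p = 0.0192) and Btg2 (−2.24, SE 0.63, adjusted p = 0.0258) were called too. Trp53 lost the call under library size and upper-quartile scaling, with no filter (adjusted p = 0.0688) and without CFZ 3 (adjusted p = 0.0550) or DMSO 1 (adjusted p = 0.0562). Btg2 lost it under library size scaling, with no filter (adjusted p = 0.131) and without any of 6 single libraries (CFZ-DOX 1, CFZ-DOX 2, CFZ 1, DOX 3, DMSO 2 and DMSO 3), and its difference was −1.60 without DOX 3. Mdm4, Ppm1d, Plk2 and Sesn1 were not called, with differences of −0.41, −0.13, 0.00 and −0.81 and SEs of 0.18, 0.38, 0.43 and 0.38. Mdm4 was called below 0 under ribosomal protein scaling (−1.12, adjusted p = 0.00176). Sesn1 was called under it (−1.54), with no filter (adjusted p = 0.0286), with the replicate block (adjusted p = 0.0265) and without CFZ-DOX 3 (adjusted p = 0.0377).

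Set directly against CFZ cells, CFZ-DOX cells had 7 of the 10 genes lower and 1, Ppm1d, higher, where 77.3% of all genes were called, 40.4% higher and 36.9% lower. The median log2 fold change was −1.27 over the 10 genes and 0.09 over all genes. Of these genes Mdm4 had the lowest value, with a log2 fold change of −3.14. Mdm2, Mdm4, Cdkn1a, Plk2, Sesn1 and Zmat3 were lower under all 5 scalings, as were 25.3% of all genes. Ccng1 (log2 fold change −0.21, adjusted p = 0.161) and Btg2 (−0.02, adjusted p = 0.966) were not called in edgeR with TMM. Ccng1 was called lower under library size (−0.46, adjusted p = 0.0225) and ribosomal protein scaling (−1.76, adjusted p = 7.36e-07), and Btg2 under ribosomal protein scaling (−1.55, adjusted p = 0.0220).

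Set against DOX cells, CFZ-DOX cells were called different for Mdm4 alone. The samples of this pair share their replicate deviations, and a fit that blocked on replicate number called 5 genes: Mdm4, Mdm2 (log2 fold change 0.50, adjusted p = 0.0171) and Plk2 (0.63, adjusted p = 0.0381) higher, Sesn1 (−0.67, adjusted p = 0.0121) and Zmat3 (−0.43, adjusted p = 0.0167) lower, beside 33.2% of all genes under that block. Without CFZ-DOX 2 or CFZ-DOX 3 the count was 3, where 15.7% and 27.0% of all genes were called. Without DOX 1, DOX 2 or DOX 3 it was 2, where 19.5%, 15.6% and 18.9% of all genes were called. Under ribosomal protein scaling 6 genes were called, all lower, where 52.9% of all genes were lower. No gene of the 10 was called in 1 direction under all 5 scalings, beside 0.757% of all genes higher and 8.34% lower. Mdm2 stood near the threshold in the main fit (log2 fold change 0.51, SE 0.18, adjusted p = 0.0569). It was called higher with RLE factors (adjusted p = 0.0355), upper-quartile scaling (0.0179), DESeq2 (0.0196) or the 1 CPM filter (0.0366). The same held without CFZ-DOX 2 (adjusted p = 0.0225) or DOX 3 (0.0352). Under ribosomal protein scaling Mdm2 was at −0.27 and not called.

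**Figure D5:**
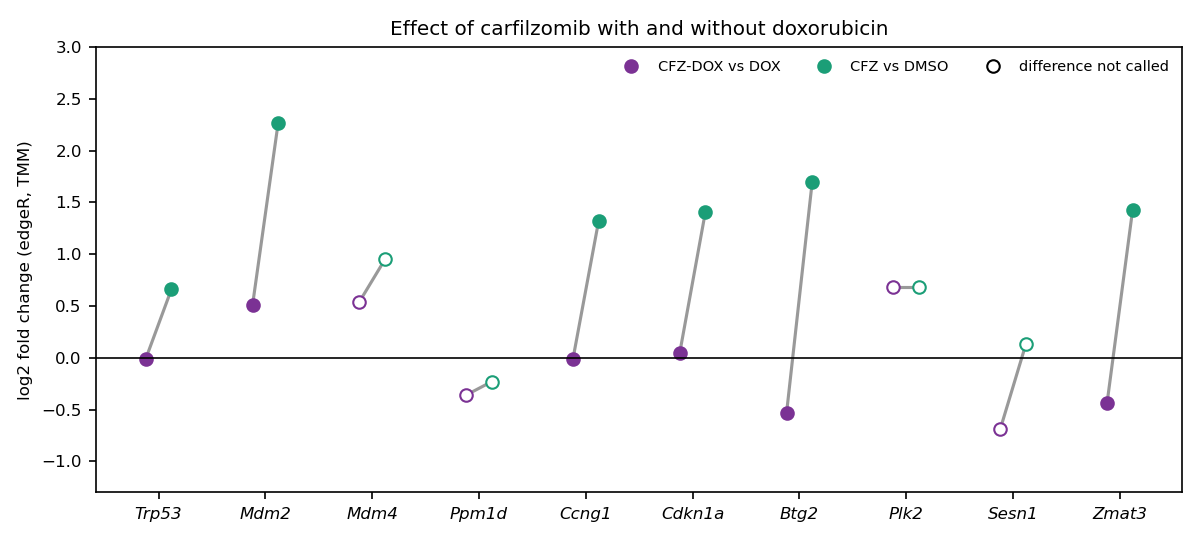
Log2 effect of carfilzomib for each gene with doxorubicin (CFZ-DOX against DOX, left point of a pair) and without it (CFZ against DMSO, right point); filled pairs differed in the interaction test. Mdm2 stands at 0.51 and 2.27, while both points of Plk2 stand at 0.68.

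The remaining genes of the pathway were read in the same fit, from lists also chosen with earlier results of these data known. Of 35 other p53 regulators, 33 were tested, and 6 were higher and 21 lower in CFZ-DOX, 8 higher and 7 lower in CFZ and 5 higher and 19 lower in DOX cells than in DMSO cells. Of all genes tested, 39.3% were higher and 35.7% lower in CFZ-DOX, 14.4% and 14.4% in CFZ and 36.1% and 31.3% in DOX cells. Under ribosomal protein scaling the list split 1 and 30, 4 and 6, and 1 and 28, and all genes split 11.1% and 68.6%, 8.28% and 14.2%, and 13.4% and 54.5%. Under upper-quartile scaling the list split 9 and 16, 7 and 7, and 8 and 13. All genes then split 50.9% and 24.8%, 13% and 16%, and 48.5% and 22.3%. The list itself holds Rpl5, Rpl11 and Rpl23, which are among the genes that ribosomal protein scaling rests on. Rpl23 was 1 of the 6 called higher in CFZ-DOX cells under TMM (log2 fold change 1.56, SE 0.19, adjusted p = 3.35e-06). Under TMM the median log2 fold changes of the list were −0.92, 0.22 and −0.61, beside 0.09, −0.01 and 0.14 over all genes. Ube4b, a ubiquitin ligase gene, was higher in CFZ and lower in DOX and CFZ-DOX cells, as Mdm4 was, with 29.2 ± 2.66 CPM in CFZ-DOX, 220 ± 4.02 in CFZ, 27.3 ± 4.95 in DOX and 114 ± 0.555 in DMSO cells (log2 fold changes −1.96, 0.96 and −2.06). The damage kinase gene Chek2 fell to 1.81 ± 0.264 CPM in CFZ-DOX and 2.91 ± 0.642 CPM in DOX cells, against 13 ± 0.284 CPM in DMSO cells. Ppp1r13l, which encodes the p53 inhibitor iASPP, rose in those groups (log2 fold changes 2.29 and 1.76).

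Of 34 other targets with roles in arrest, repair and metabolism, 32 were tested: 17 were higher and 11 lower in CFZ-DOX, 18 higher and 3 lower in CFZ and 16 higher and 7 lower in DOX than in DMSO cells. The same shares of all genes apply, 39.3% higher and 35.7% lower in CFZ-DOX, 14.4% each way in CFZ, and 36.1% higher and 31.3% lower in DOX cells, and the 11 of 32 that were lower in CFZ-DOX cells are near the share of all genes. Gadd45a, a growth-arrest and repair gene, reached 220 ± 2.37 CPM in CFZ cells against 25.8 ± 2.71 CPM in DMSO cells (edgeR log2 fold change 3.09, SE 0.30, adjusted p = 6.84e-06). It stood at 14.2 ± 7.77 CPM in CFZ-DOX cells. Rrm2b, a ribonucleotide reductase subunit gene, rose in DOX cells (log2 fold change 1.55, SE 0.16, adjusted p = 1.32e-06), while Phlda3, an Akt inhibitor gene, fell there (−2.66, SE 0.21, adjusted p = 1.3e-07). Of 14 targets that act in cell death, 12 were tested, and 8 were higher and 2 lower in CFZ-DOX, 5 higher and 0 lower in CFZ and 7 higher and 2 lower in DOX cells, against those same shares. Under ribosomal protein scaling the other arrest, repair and metabolism targets split 3 higher and 20 lower in CFZ-DOX, 13 and 2 in CFZ and 6 and 13 in DOX cells, and the death targets 1 and 9, 5 and 1, and 3 and 4, against the shares of all genes under that scaling given above. Upper-quartile scaling gave 20 and 4, 17 and 3, and 20 and 6 for the former. For the death targets it gave 9 and 1, 5 and 0, and 9 and 2, against its shares given above.

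Cell cycle genes that fall in p53-dependent arrest were mostly lower with each treatment. Of the 20 measured, 1 was higher and 15 lower in CFZ-DOX, 0 higher and 15 lower in CFZ and 2 higher and 14 lower in DOX cells than in DMSO cells, where 35.7%, 14.4% and 31.3% of all genes were lower. Ccna2, the cyclin A2 gene, had 18.2 ± 6.43 CPM in CFZ-DOX, 41.4 ± 2.60 in CFZ and 27.5 ± 9.55 in DOX cells against 169 ± 17.6 CPM in DMSO cells (log2 fold changes −3.21, −2.03 and −2.62). Pcna, the replication clamp gene, was among the 2 that rose in DOX cells, at 191 ± 24.2 CPM against 138 ± 2.09 CPM in DMSO cells (edgeR log2 fold change 0.47, SE 0.14, adjusted p = 0.00822). Under upper-quartile scaling the split in DOX cells was 4 higher and 8 lower, beside 48.5% and 22.3% of all genes. Under ribosomal protein scaling it was 0 and 19, beside 13.4% and 54.5%. Without DOX 3 it was 2 and 10 under TMM, where 68.2% of all genes were called (6730 higher, 4995 lower). In CFZ-DOX cells upper-quartile scaling gave 2 and 12, beside 50.9% and 24.8%, and ribosomal protein scaling gave 0 and 20, beside 11.1% and 68.6%. In CFZ cells both gave 0 and 16, beside 16% and 14.2% of all genes lower.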

How the data were processed

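The 10 genes and the other gene lists were chosen with earlier results of these data known. Raw counts of reads per Ensembl gene were deposited by the authors in 1 table, beside each gene's position and exon length. The submitters' processing notes name STAR 2.7.9a, Trimmomatic 0.39, Subread 2.0.2 with featureCounts, and build GRCm39. Whether read pairs and strand were taken into account, and from which annotation release, is not given in the sources used here; overlapping genes may share reads. Symbols came from an older mouse annotation (52073 of 56980 IDs, 91.4%).

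Groups and replicate numbers came from the sample titles. Total counts per library were 28278879 to 42033993, which sets the counting error only. Genes were kept with filterByExpr (minimum count 10, minimum total 15; 16648 genes) and tested in 1 fit of all 12 libraries with edgeR 4.0.16 in R 4.3.3 (quasi-likelihood F test, robust, TMM, prior count 0.125), with Benjamini-Hochberg adjustment over all genes. SEs were derived from the fold change and its F statistic and are approximate. The method was tested on simulated data.

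All 10 genes are described; of each other list, up to 4 called genes with the largest change in its more frequent direction and 2 in the other, at a mean of at least 1 CPM, could be named. The 3 nearest patterns were sought for Trp53, Mdm2 and Cdkn1a among genes averaging 5 CPM or more.

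Alternatives were RLE, library size, upper-quartile and ribosomal protein gene scaling (81 genes), no filter, a filter of 1 CPM in 3 libraries, DESeq2 1.42.0, limma-voom (limma 3.58.1), the 6 compared libraries alone, an adjusted p under 0.01, each library left out in turn, and the replicate number as a block. Same-numbered libraries deviated together for CFZ and DMSO (r = 0.27, 0.22 and 0.33), DOX and DMSO (0.21, 0.21 and 0.20) and CFZ-DOX and DOX (0.53, 0.28 and 0.61), a pairing taken from the data and not from the labels; for CFZ-DOX with DMSO (0.25, 0.03 and 0.08) and with CFZ (0.22, 0.00 and 0.09) at least 1 pair did not reach 0.1. Promoter windows came from RefSeq on GRCm38.p6.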

Additional observations from a re-analysis of the deposited data

Results flagged for a closer look

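In 6 genes the effect of carfilzomib differed between cells with and without doxorubicin, by the interaction test of edgeR with Benjamini-Hochberg adjustment over all genes; each value is the log2 carfilzomib effect with doxorubicin minus that without it. The differences were −1.76 for Mdm2, −1.34 for Ccng1, −1.36 for Cdkn1a and −1.86 for Zmat3, which were called under all 5 scalings. They were −0.67 for Trp53 and −2.24 for Btg2, whose calls were lost under some scalings and without some single libraries. The ribosomal protein share of the counts, 9.76 to 10.4% in CFZ-DOX and 6.54 to 7.09% in DOX against 3.81 to 4.29% in CFZ and 3.87 to 4.21% in DMSO libraries, differed along with these groups; its part in the differences was not tested.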

How the results depend on the processing

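Of 60 fold changes or differences of the 10 genes, 34 were called, and 23 of these were called in the same direction in every alternative; 11 lost the call or turned in some. Ribosomal protein gene scaling turned 13 values (log2, in CFZ-DOX against DMSO unless stated): Mdm2 −1.49, Ppm1d −1.02, Ccng1 −0.53, Cdkn1a −1.40 and Zmat3 −1.55, each then called lower; Cdkn1a −0.70 and Zmat3 −0.32 in DOX against DMSO; Ppm1d −0.69 against CFZ; Mdm2 −0.27, Mdm4 −0.26, Cdkn1a −0.70 and Plk2 −0.09 in CFZ-DOX against DOX; and Plk2 −0.69 in the interaction. Both Cdkn1a values of −0.70 were called lower in edgeR too (adjusted p = 0.0178 in DOX against DMSO and 0.0241 in CFZ-DOX against DOX). The cause of these turns was not tested. The other values that turned were not called in either setting. Under upper-quartile scaling they were Trp53 0.31 and 0.20 in CFZ-DOX and DOX against DMSO, Ccng1 0.33 and Btg2 0.51 against CFZ, Trp53 and Ccng1 0.11 each against DOX, and Ppm1d 0.04 in the interaction. Under library size scaling they were Mdm2 −0.18, Cdkn1a −0.09 and Zmat3 −0.24 in CFZ-DOX against DMSO, Cdkn1a −0.13 against DOX and Plk2 −0.09 in the interaction. With RLE factors and with DESeq2, Btg2 stood at 0.07 against CFZ, and Trp53 at 0.07 and Ccng1 at 0.06 against DOX; with a filter of 1 CPM they were 0.15, 0.05 and 0.04. Without a filter, Cdkn1a was −0.02 against DOX and Plk2 −0.01 in the interaction; Plk2 was −0.09 there with limma-voom and −0.06 with the replicate block; with 6 libraries alone Btg2 was 0.13 against CFZ.

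Leaving out single libraries turned uncalled values within these ranges: Sesn1 0.00 to 0.24 in CFZ against DMSO; Mdm2 −0.08 to 0.28, Cdkn1a −0.01 to 0.35 and Zmat3 −0.08 to 0.17 in CFZ-DOX against DMSO; Btg2 −0.47 to 0.36 against CFZ; Trp53 −0.09 to 0.07, Cdkn1a −0.17 to 0.19 and Btg2 −0.98 to 0.06 against DOX; Ppm1d −0.43 to 0.18 and Plk2 −0.51 to 0.30 in the interaction. The count of genes called in CFZ-DOX against DMSO was 5, beside 75.0% of all genes. Under upper-quartile scaling it became 9 (6 higher, 3 lower), where 50.9% of all genes were higher and 24.8% lower. Under ribosomal protein scaling it became 9 (0 higher, 9 lower), where 11.1% of all genes were higher and 68.6% lower. In CFZ-DOX against DOX the count was 1, beside 22.4% of all genes. It became 2, Mdm2 and Mdm4, with RLE factors, upper-quartile scaling, DESeq2 or the 1 CPM filter (23.6%, 24.4%, 27.0% and 27.5% of all genes). With no filter it was 2, Plk2 and Sesn1 without Mdm4, beside 11.1%. It was 0 with library size scaling (20.9%) or the 6 libraries alone (7.03%). Ribosomal protein scaling gave 6 (53.6%) and the replicate block gave 5 (33.2%). Leaving out single libraries gave 1 to 3, beside 15.6% to 27.0%. With 6 libraries alone, 8 genes were called in CFZ against DMSO, where 57.2% of all genes were called, against 28.8% in the main fit. The replicate block changed no call in CFZ-DOX against CFZ, added Ppm1d (0.54, adjusted p = 0.0250) in CFZ-DOX against DMSO and added Sesn1 (−0.80, adjusted p = 0.0265) in the interaction. The interaction could not be fitted to 6 libraries. Every gene had 214 counts or more in each library. Counting error was thus small beside the median shifts under ribosomal protein scaling of −0.87 in DOX and −1.65 in CFZ-DOX against DMSO. In CFZ against DMSO that shift was only −0.09, and the statement does not extend to it.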

Other observations

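Over the 12 libraries, the genes whose log2 levels relative to DMSO lay closest to those of Trp53, among 9346 genes averaging 5 CPM or more, were Pcid2, Pak1ip1 and Gtf2f2, with root mean square differences of 0.09, 0.10 and 0.12. For Mdm2 they were Hspb8 (0.18), a small heat shock protein gene, Swt1 (0.28) and Impact (0.29). For Cdkn1a they were Bsdc1 (0.13), Jade3 (0.18) and Lrrc49 (0.18). Hspb8 had log2 fold changes of 0.00 in CFZ-DOX, 2.03 in CFZ and −0.26 in DOX cells against DMSO, beside 0.13, 2.27 and −0.38 for Mdm2. The libraries of a group are shared by all these genes, so the likeness is a description.

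With doxorubicin more gene IDs had at least 1 count: 25622 to 26610 in CFZ-DOX and 25438 to 26809 in DOX libraries, against 21408 to 22253 in CFZ and 21503 to 22345 in DMSO libraries. The spread between replicates of the 10 genes, as highest over lowest level, reached 2.98 for Plk2 in CFZ-DOX and 3.22 for Btg2 in DOX cells, while in DMSO cells the widest was 1.85, for Btg2.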
